A study of Mus musculus with 331 samples.

Results

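The outer rim of the spinal cord was compared with the white matter just inside it in WT mice, the animals labelled B6SJLSOD1-WT that serve as controls in a study of amyotrophic lateral sclerosis. The assay was spatial transcriptomics, which lays a tissue section on an array of barcoded capture spots and counts polyadenylated RNA per gene and spot. Members were chosen by label alone: 24 of the 67 mice, on 108 of the 331 arrays, of the ages p30 (6 mice), p70 (4), p100 (8) and p120 (6), taken as days after birth. The label gives strain and genotype only, no treatment is named, and 2 of the p70 mice shared their arrays with a section of a B6SJLSOD1-G93A mouse. B6SJLSOD1-G93A mice (G93A below), which carry a mutant SOD1 transgene, entered a single side comparison with 5 mice at p100 and 9 at p120.

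In the authors' region annotation the edge comprised 3 regions (ventral, lateral and dorsal edge) with 3781 spots, and the inner white matter comprised 4 regions (ventral medial, ventral lateral, medial lateral and dorsal medial white) with 6854 spots, out of 23397 spots of these mice. Counts were summed per mouse over each class, so that every mouse gave 1 edge value and 1 inner white value, with the mouse as a block in the fit. A mouse held 21 to 440 edge spots with 11210 to 1027028 counts, and 23 to 1038 inner white spots with 32709 to 1554218 counts. A spot covers parts of several cells. In such sums, fewer cells of a type and less RNA per cell cannot be told apart.

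The surface of the cord is built in layers. Astrocyte end-feet joined into the glia limitans meet a basement membrane of laminin and type IV collagen, and outside it lie the meninges, whose fibroblasts make fibrillar collagens and whose blood vessels are accompanied by resident border macrophages. Spinal roots enter and leave here, and their axons pass from Schwann cell myelin, whose makers use periaxin to hold their outer membrane to the basal lamina, to oligodendrocyte myelin, of which myelin basic protein is a main component. Inner white matter holds long axons, oligodendrocytes and fibrous astrocytes.

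Promoters are shown for 4 genes that stand for these layers and that were higher at the edge: Col1a2 and Col3a1 (fibrillar collagen chains of fibroblasts), Prx (periaxin, a scaffold of Schwann cell myelin) and Myoc (myocilin, a secreted protein known from superficial astrocytes). Each is the plus strand from 250 bases before to 50 bases from the start site, from RefSeq on GRCm38.p6, and capitals mark the TATAAA box and the CCAAT box on either strand.
Col1a2, chr6:4505368-4505667: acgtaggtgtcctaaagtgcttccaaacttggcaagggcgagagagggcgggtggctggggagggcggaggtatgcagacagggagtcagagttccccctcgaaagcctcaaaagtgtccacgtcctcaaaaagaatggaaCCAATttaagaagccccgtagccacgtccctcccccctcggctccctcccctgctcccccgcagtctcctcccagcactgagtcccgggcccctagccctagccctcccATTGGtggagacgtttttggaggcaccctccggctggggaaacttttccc
Col3a1, chr1:45311288-45311587: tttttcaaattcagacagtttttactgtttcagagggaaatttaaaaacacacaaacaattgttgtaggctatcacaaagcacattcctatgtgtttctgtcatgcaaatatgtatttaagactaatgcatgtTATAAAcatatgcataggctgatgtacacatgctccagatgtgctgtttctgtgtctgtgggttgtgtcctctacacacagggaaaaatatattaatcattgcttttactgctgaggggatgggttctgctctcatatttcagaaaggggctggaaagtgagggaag
Prx, chr7:27499074-27499373: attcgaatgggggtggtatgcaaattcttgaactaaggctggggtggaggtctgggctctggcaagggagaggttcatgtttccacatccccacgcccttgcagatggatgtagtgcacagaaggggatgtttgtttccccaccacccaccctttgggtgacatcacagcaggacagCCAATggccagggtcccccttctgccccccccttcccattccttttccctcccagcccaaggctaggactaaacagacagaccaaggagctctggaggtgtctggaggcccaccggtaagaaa
Myoc, chr1:162638900-162639199: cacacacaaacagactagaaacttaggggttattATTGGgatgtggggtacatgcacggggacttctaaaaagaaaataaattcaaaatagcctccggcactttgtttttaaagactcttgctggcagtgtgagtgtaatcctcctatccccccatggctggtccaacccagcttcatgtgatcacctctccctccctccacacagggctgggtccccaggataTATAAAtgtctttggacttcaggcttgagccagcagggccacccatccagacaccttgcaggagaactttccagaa
The Myoc promoter held TATAAA 26 bases before the start site and 1 CCAAT on the minus strand, that of Col3a1 held TATAAA 117 bases before it, that of Prx held 1 CCAAT, and that of Col1a2 held 1 CCAAT on each strand. Of 32851 promoters of this length, 13.6% held TATAAA and 37.4% held CCAAT on either strand. Of 28 meningeal fibroblast markers, 20 had a promoter in the table, of which 4 held TATAAA and 8 held CCAAT. Such matches describe letters only.

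The region labels were checked against the counts. In each of the 108 count tables, grey matter spots were set against white matter spots for Snap25 (a synaptic protein) and Mbp (myelin basic protein). The log2 ratio of grey to white of Snap25 less that of Mbp was 1.56 or more (median 2.98) in the 101 tables kept, of which 1 could not be checked. In the other 7 tables it was between -0.23 and 0.91, under a threshold of 1 that was chosen after these values were seen. The 7 tables were all those of WT p120 mice 3 and 4, 3 of 4 of WT p30 mouse 2 and 1 of 8 of WT p120 mouse 5. They are kept in the main values because no label sets them apart. Leaving them out, which leaves 22 mice, was chosen after seeing the data. Levels per mouse are given with all tables. Of 187 list members tested with and without the 7 tables, 116 were called in both fits and 61 in neither, with no called gene changing sign. Ctss lost its call, and Agt, Clu, Flt1, Mt3, Slc14a1, Slc4a10, Slco1c1, Thy1 and Uchl1 gained one. Tagln, Igfbp4, C1ql1 and Mvd were not tested without them. In 2 of 24 mice X-linked and Y-linked transcripts went against the labelled sex. Sex entered no fit. Edge and inner white were compared within each mouse, but the tests between ages and with G93A mice compare different mice. By label, male and female WT mice numbered 2 and 4 at p30, 1 and 3 at p70, 5 and 3 at p100 and 3 and 3 at p120.

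Edge spots were shallower than inner white spots. The median counts per edge spot ranged over mice from 430 to 3764 (median 1061) and those per inner white spot from 546 to 4884 (median 1248). The edge was lower in 22 of 24 mice, by a mean log2 ratio of -0.27 (SD 0.27, n = 24, two-sided permutation test over mice, p = 0.00014). With mean in place of median counts per spot the ratio was -0.14, lower in 17 of 24 mice (permutation test, p = 0.016). Without the 7 tables the mean was -0.33 (n = 22). Genes detected per spot were lower too (mean log2 ratio -0.21). The gene values below are therefore shares of the counts, as normalised CPM (counts relative to the TMM-scaled total of a mouse's class, on a scale where the total is 1e6), and say nothing of RNA per spot. Summed levels of the lists and levels over pooled spots are instead relative to the plain total, without TMM scaling. They are not on the same scale as the values of single genes per mouse.

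As shares of the counts, genes of meningeal fibroblasts, Schwann cells, basement membrane and insulin-like growth factors were higher at the edge, and genes of myelin and of astrocyte transport and metabolism were lower. With edgeR's quasi-likelihood test and Benjamini-Hochberg adjustment at 0.05, 687 of 5266 genes tested were higher at the edge and 716 were lower, 1403 in all. That is a background of 26.6% called, 13% higher and 13.6% lower, with a median log2 fold change over all genes of 0.02. With the 7 tables left out, 704 of 4815 genes were higher and 745 lower (30.1%). No gene had edge and inner white ranges over mice that did not overlap (0% of genes). Without the mouse as a block 892 genes were called. The labels name 3 barcode versions of the array, L6, L7 and L8. Called on L7 and L8 arrays alone (13 mice) were 1825 of 8120 genes, and on the shallower L6 arrays alone (11 mice) 26 of 2153. Of the 7 tables with contradicted labels, those of WT p120 mice 3 and 4 and of WT p30 mouse 2 were on L6 arrays. The part of depth and of these labels in the L6 count was not tested.

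**Figure D1:**
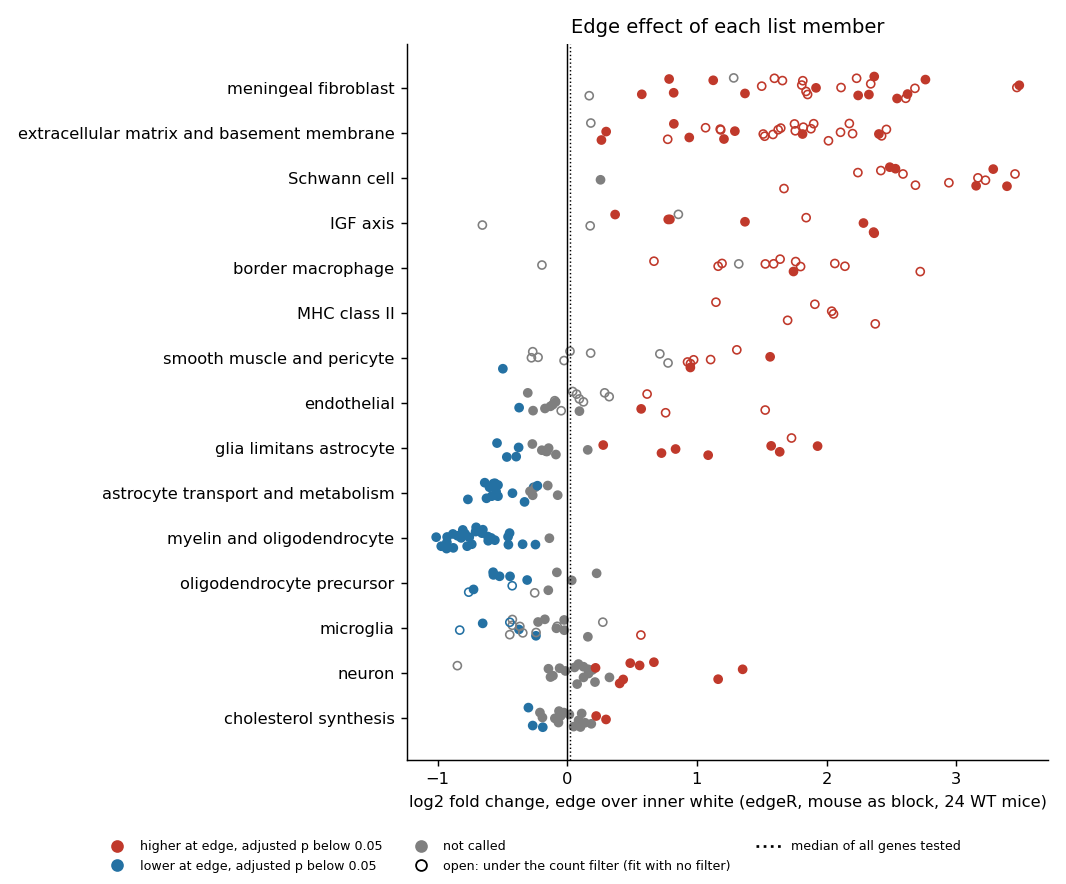
Log2 fold change of edge over inner white (x axis) for each member of 15 gene lists (y axis) in 24 WT mice, with red and blue for called higher and lower, grey for not called and open circles for members under the count filter, taken from a fit with no filter. Fibroblast, matrix and Schwann cell members lie to the right of the median of all genes at 0.02, and myelin and astrocyte transport members lie to the left.

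Among the genes with the smallest p at the edge was Crispld2, which encodes a secreted protein (chromosome 8, 119992438 to 120052793, GRCm38). Over mice its edge level ran from 11.8 to 224 CPM with a median of 69.5, and its inner white level from 0 to 67.5 with a median of 16.8. It was higher at the edge in 23 of 24 mice, with an effect of 1.95 on the log2 scale (SE 0.15, edgeR adjusted p = 5.71e-16) and 2.03 without the 7 tables. Serpinh1, the collagen chaperone, followed with a log2 fold change of 1.72 (SE 0.13) and a median of 119 CPM at the edge and 33.5 in inner white. Other genes by this rule were Col4a1, Ncmap, Igf2 and Igfbp2, described with their groups, and Ctnnal1 (1.37), Fam178b (3.15), Ebf1 (1.38), Fxyd6 (1.64) and Nr2f2 (1.48), with log2 fold changes in brackets. Ebf1 and Nr2f2 are transcription factors and Fxyd6 regulates the sodium pump.

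Fibroblast genes were high at the edge. Col1a2 (chromosome 6, 4504814 to 4541544), whose promoter is printed above, had 47.8 to 2060 CPM at the edge (median 445) and 22.1 to 304 in inner white (median 93.5). It was higher in all 24 mice, with an effect of 2.24 on the log2 scale (SE 0.15, edgeR adjusted p = 7.80e-11). Its partner chain Col1a1 ran from 23.5 to 2304 CPM at the edge (median 276) against 0 to 337 (median 60.7), and rose by 2.33 (SE 0.18) on the log2 scale. The ranges of both chains overlapped between classes, since the highest inner white mice lay above the lowest edge mice. Col3a1 rose by 2.54 (SE 0.18), Dcn, the collagen-binding proteoglycan decorin, by 2.76 (SE 0.27) and Ogn, osteoglycin, by 3.49 (SE 0.24). Without the 7 tables the log2 fold changes were 2.34 for Col1a2 and 2.46 for Col1a1.

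Of 28 fibroblast markers, 13 passed the filter on low counts, and these 13 rose, with a median of 2.24. Such a filter lets in a marker because the edge is high, so only the 6 that pass on inner white counts alone can be read against the background, and these 6 rose, beside 485 of 4682 genes that pass in that way. In the fit with no filter, where 7.06% of 16930 genes were called higher, 26 of 28 rose. Dpp4 (log2 fold change 1.28) and Col13a1 (0.17) were not called there. Members of this fit not counted in the filtered one included Lum (2.68), a keratan sulfate proteoglycan, Cdh1 (3.47), the E-cadherin that joins the arachnoid barrier cells, and Aldh1a2 (1.81), the retinoic acid synthase of the meninges. The summed level of the list was 2695 to 24740 CPM at the edge (median 8795) and 1825 to 5354 in inner white (median 3658), and higher at the edge in 22 of 24 mice. No member was without an edge count.

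Basement membrane and other matrix genes followed. Col4a1, a chain of the type IV collagen network, had medians of 157 CPM at the edge and 42.8 in inner white, with an effect of 1.81 on the log2 scale (SE 0.13, edgeR adjusted p = 7.60e-15) and 1.98 without the 7 tables. Lamb2, a laminin chain, was higher in all 24 mice, from 11.9 to 204 CPM (median 69.4) against 0 to 202 (median 22.7), with a log2 fold change of 1.29 (SE 0.15). Lamc1 (0.94), Nid1 (0.82), Fn1 (1.21), Col15a1 (2.40), Sparc (0.30) and Agrn (0.26) were the other members tested and rose, in log2 fold change. Of 29 members 8 were tested, 4 of them passing on inner white counts alone, and all 8 rose. The median was 1.075 over the 8 and 0.56 over the 4. With no filter 27 of 29 rose, and Tnc, tenascin C, was at 0.18 without a call.

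Schwann cell genes were high at the edge. Prx, periaxin (chromosome 7, 27499324 to 27520214), whose promoter is printed above, had 11.8 to 1733 CPM at the edge with a median of 460, and 0 to 122 in inner white with a median of 34.8. It was higher in 22 of 24 mice, with an effect of 3.15 on the log2 scale (SE 0.28, edgeR adjusted p = 7.49e-09) and 3.46 without the 7 tables. The 2 mice in which Prx was lower at the edge were WT p120 mice 3 and 4, both with contradicted region labels. Pmp22, a peripheral myelin protein, rose by 2.49 (SE 0.25), Ncmap, a protein of non-compact myelin, by 3.39 (SE 0.21) and Drp2, a partner of periaxin, by 2.53 (SE 0.21). Cdh19, tested too, was not called at 0.26. Of 15 Schwann cell markers 6 were tested and 5 rose. Of the 3 that pass on inner white counts alone 2 rose, beside 485 of 4682 genes that pass in that way. The others that rose entered through their edge counts, so their rise cannot be read against the background. Ncmap was tested in 11 of 39 alternatives. With no filter 14 of 15 rose. The summed list level spanned 732 to 46610 CPM at the edge (median 8640) and 493 to 3058 in inner white (median 1095).

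**Figure D2:**
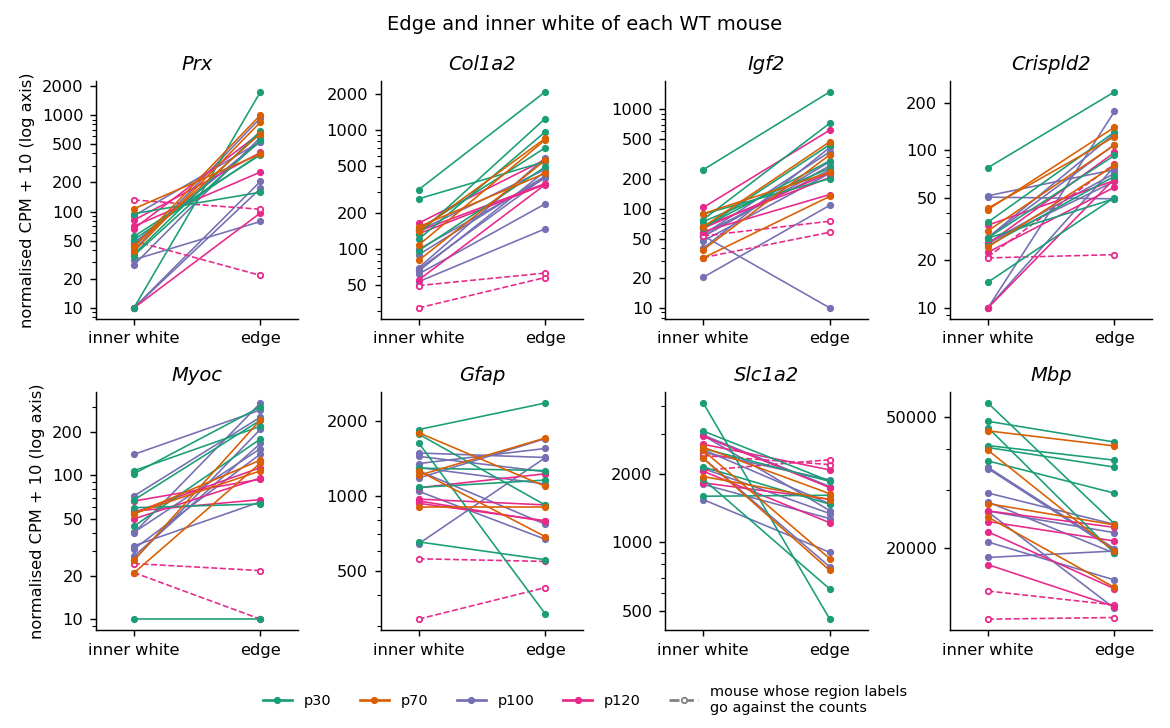
Normalised CPM plus 10 (log axis) in inner white and edge for 8 genes, each line 1 of 24 WT mice, coloured by age, with dashed lines for the 2 mice with contradicted labels in every table. Lines rise to the edge for Prx, Col1a2, Igf2, Crispld2 and Myoc in most mice, go both ways for Gfap and fall for Slc1a2 and Mbp.

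Both insulin-like growth factors and several of their binding proteins rose at the edge. Igf2 (chromosome 7, 142650766 to 142666816), a growth factor made by the meninges, ran from 0 to 1489 CPM at the edge (median 240) and from 10.3 to 236 in inner white (median 47.4). It was higher in 23 of 24 mice, with an effect of 2.37 on the log2 scale (SE 0.14, edgeR adjusted p = 1.55e-13) and 2.49 without the 7 tables. The mouse with no Igf2 count at the edge was WT p100 mouse 8, which had 1 array. The part of its depth in this was not tested. Igf1, the other ligand, rose by 2.29 (SE 0.22), and the binding proteins Igfbp2 by 1.37 (SE 0.13), Igfbp7 by 0.79, Igfbp5 by 0.78 and Igfbp4 by 0.37. Of 11 members of the axis 6 were tested and all 6 rose, with a median of 1.08. Only Igfbp7 and Igfbp5 passed on inner white counts alone (median 0.79). Igf2, Igf1, Igfbp2 and Igfbp4 did not, so their rise cannot be read against the background. With no filter 7 of 11 rose, with Igfbp3 (1.84) and Igfbp6 (2.36) among them. The 4 not called in that fit were Igfbp4 (0.27), Igfbpl1 (0.86) and the receptor genes Igf1r (-0.65) and Igf2r (0.18).

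Markers of surface astrocytes split. Of 19 markers of the glia limitans 18 were tested, 7 rose and 4 fell, with a median of -0.12, and 7 rose and 6 fell without the 7 tables. Of the 17 that pass on inner white counts alone, 6 rose and 4 fell, with a median of -0.14. Beside them, 485 of 4682 genes that pass in that way rose and 698 fell. Not every rise in this list can therefore be read against the background. With no filter 7 rose and 10 fell of 19, with a median of -0.20. Gfap, the astrocyte filament protein, had 326 to 2342 CPM at the edge (median 995) and 310 to 1831 in inner white (median 1181). It was higher in 9 of 24 mice, with an effect of -0.14 on the log2 scale (SE 0.12, edgeR adjusted p = 0.424) and -0.18 without the 7 tables. The Gfap ranges overlapped nearly whole, and its direction turned to 0.08 when the inner white next to the edge was left out. Of 39 alternatives 3 called Gfap lower, and its lowest value was -0.28. Aqp4, the water channel of end-feet, was at -0.16 (SE 0.11, adjusted p = 0.33, edgeR) and higher in 12 of 24 mice.

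Other genes of the same list rose. Myoc (chromosome 1, 162639155 to 162649693) had 0 to 308 CPM at the edge (median 124) and 0 to 130 in inner white (median 37), with an effect of 1.64 on the log2 scale (SE 0.16, edgeR adjusted p = 2.01e-09) and 1.73 without the 7 tables, and was higher in 21 of 24 mice. Vim, the filament protein vimentin, which fibroblasts and Schwann cells also make, rose by 1.93 (SE 0.18). S100a6 (1.57), Dag1 (1.09), which encodes the laminin receptor dystroglycan, Cd44 (0.84), a hyaluronan receptor, Id3 (0.73) and Fxyd1 (0.28) rose as well. Those that fell were Hepacam (-0.54), Gja1 (-0.47), S100b (-0.39) and Dtna (-0.38). The part of the fibroblast and Schwann cell markers above in the genes that rose was not tested.

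The astrocyte genes for transport and metabolism fell. Slc1a2, the main glutamate transporter, had 449 to 2310 CPM at the edge (median 1503) and 1536 to 4116 in inner white (median 2379). It was lower at the edge in 22 of 24 mice, with an effect of -0.77 on the log2 scale (SE 0.13, edgeR adjusted p = 9.88e-05) and -0.89 without the 7 tables. Glul, glutamine synthetase, fell by 0.57 on the log2 scale (SE 0.07) and was lower in 23 of 24 mice. Kcnj10 (-0.60), a potassium channel, Slc6a11 (-0.64), a GABA transporter, and Slc6a9 (-0.62), a glycine transporter, fell too. Of 20 members 20 were tested, 15 fell (16 without the 7 tables) and none rose. Aldh1l1 (-0.27), Sox9 (-0.25), Agt (-0.29), F3 (-0.15) and Gjb6 (-0.07) were not called.

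Oligodendrocyte myelin fell at the edge by less than 1 on the log2 scale for most members. Mbp had medians of 19771 and 27405 CPM and fell by 0.45 on the log2 scale (SE 0.07; by 0.52 without the 7 tables), lower in 22 of 24 mice. The 7 tables were picked with Mbp itself, so its value without them is no separate check. Cnp, an enzyme of myelin, was lower in 23 of 24 mice, with 899 to 3172 CPM at the edge (median 1255) against 874 to 4194 (median 2104) and an effect of -0.59 on the log2 scale (SE 0.07, edgeR adjusted p = 1.10e-09), or -0.67 without the 7 tables. Of 29 members 29 were tested and 28 fell, as 28 did without the 7 tables, with a median of -0.74. Gsn, gelsolin, was not called at -0.14. Ppp1r14a (-1.01), Nkx6.2 (-0.97), a transcription factor of oligodendrocytes, Anln (-0.93) and Mobp (-0.93) were among those with the largest falls. In summed level the list fell in 23 of 24 mice, from a median of 75050 CPM to 46410.

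The genes lower at the edge with the smallest p included further ones known from oligodendrocytes, such as Lpar1 (-0.67), a lysophosphatidic acid receptor, Bcas1 (-0.57) and Gatm (-0.54), a creatine synthesis enzyme. The others were Arrdc3 (-0.97), Serpinb1a (-0.73), Ccp110 (-0.87), Fnbp1 (-0.60), Rhog (-0.82) and Cntn2 (-0.74), an adhesion protein of axons. The largest fall by the rule on size was that of Cdr1, with medians of 30.5 and 127 CPM and a log2 fold change of -1.79 (SE 0.19). Of 14 oligodendrocyte precursor markers 10 were tested, 6 fell and none rose. Olig1 (-0.72) and Olig2 (-0.57) fell, while Pdgfra (0.23) and Sox10 (-0.15) were not called. Of 20 genes of cholesterol synthesis, a pathway that myelin draws on, all 20 were tested: 2 rose, Fdps (0.22) among them, Hmgcs1 (-0.19), Cyp51 (-0.27) and Insig1 (-0.30) fell, and 15 were not called. With no filter none rose and the 3 fell. The counts of 2 and 3 of 20 are near the background of 13% higher and 13.6% lower over all genes. Hmgcs1 lost its call in 7 of 39 alternatives, Cyp51 in 5 and Insig1 in 1.

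Genes of border macrophages were mostly under the count filter, and few endothelial genes were called. Lyz2, lysozyme of macrophages, had 11.9 to 308 CPM at the edge (median 97.9) and 0 to 201 in inner white (median 33.1), with a log2 fold change of 1.74 (SE 0.18). It was the only one of 14 border macrophage markers tested, and it did not pass the filter on inner white counts alone. With no filter 12 of 14 rose, among them Mrc1 (1.76), the mannose receptor, Lyve1 (2.14) and F13a1 (2.06), and of 7 genes of MHC class II the 6 in all 3 name sets rose, such as Cd74 (1.70). Of 9 markers tested of microglia, the macrophages inside the tissue, 3 fell, P2ry12 (-0.37), Ctss (-0.24) and Sall1 (-0.65), and none rose. With no filter 7 of 20 fell and 1 rose, Olfml3 (0.57). The count was 2 without the 7 tables, since Ctss was at -0.24 with an adjusted p of 0.0708 (edgeR). The Ctss call was lost in 19 of 39 alternatives, with adjusted p up to 0.855. Of 9 endothelial genes tested Itm2a rose (0.57), Ly6c1 fell (-0.37) and 7 were not called, with Cldn5, the tight junction claudin, at -0.17. These calls are near the background of 13% higher and 13.6% lower over all genes. Endothelial genes that fell numbered 3 without the 7 tables, as Flt1 (-0.36) and Slco1c1 (-0.38) were called, and with no filter 4 of 20 rose and 3 fell. Of 16 smooth muscle and pericyte markers 3 were tested: Tagln (1.57) and Vtn (0.95) rose and Rgs5 (-0.50) fell. Of the 2 that pass on inner white counts alone, 1 rose and 1 fell. With no filter 7 of 16 rose and 1 fell.

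Neuronal genes were tested for 23 of 24 members, of which 8 rose (10 without the 7 tables) and none fell. Of the 22 that pass on inner white counts alone 7 rose, beside 485 of 4682 genes that pass in that way. Calca, the sensory neuropeptide CGRP, had 11.9 to 2080 CPM at the edge (median 95.1) and 17.3 to 514 in inner white (median 67.8), and was higher in 17 of 24 mice with an effect of 1.35 on the log2 scale (SE 0.33, edgeR adjusted p = 0.00295) and 1.59 without the 7 tables. Tac1, the precursor of substance P, rose by 1.16 (SE 0.21), and Syt1 (0.67), Penk (0.56), Snhg11 (0.49), Meg3 (0.43), Slc17a6 (0.40) and Vsnl1 (0.22) rose too. The general synaptic gene Snap25 was at 0.08 (SE 0.06, adjusted p = 0.422, edgeR), and the neurofilament gene Nefl at -0.13. The summed level was 6056 to 20880 CPM at the edge (median 11150) and 5044 to 18930 in inner white (median 9374). It was higher at the edge in 18 of 24 mice.

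Of the signalling lists, the bone morphogenetic protein axis had 20 members, of which 7 were tested: Id3 rose (0.73), and Smad7 (-0.69), Id2 (-0.38) and Smad5 (-0.36) fell. With no filter 5 rose and 3 fell of 20, and those that rose included Bmp7 (1.59), a ligand, and Chrdl1 (2.25), an antagonist. Aldh1a1 (-0.14) was the only one of 16 retinoid genes tested and was not called. With no filter 7 retinoid genes rose, Crabp2 (2.11) and Rbp4 (1.63) among them, and Aldh1a1 fell (-0.25). Of 15 meningeal transporters 3 were tested and none was called, and with the 7 tables left out, 1 of the 3 rose, Slc4a10 (0.35, adjusted p = 0.0318, edgeR). With no filter 7 rose, such as Slc6a13 (2.21), a GABA transporter, and Slc13a4 (2.24), a sulfate transporter. Mt1, a metallothionein, fell (-0.25), as did Mt3 (-0.19) without the 7 tables, and Hba.a2, a haemoglobin chain, rose (0.95). Hba.a2 was the only blood gene tested and did not pass the filter on inner white counts alone. Sox2 fell (-0.38) and Nnat rose (0.28) among 2 ependymal genes tested, and of 39 alternatives Nnat lost its call in 11 and Sox2 in 2. Of 2 stress genes tested, Jun and Jund, none was called, though Jund was called lower in 9 of 39 alternatives. With no filter 1 of 14 stress genes rose and 1 fell.

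A step inward from the edge the mean levels of Prx, Col1a2 and Myoc were lower, a difference that was not tested. Inner white spots within 1.5 array units of an edge spot (3740 spots in 24 mice) were set against the remaining inner white spots (3110 in 23 mice), and the test used the 23 mice with both. Prx fell from 506 ± 391 normalised CPM at the edge (SD, n = 24) to 43.7 ± 37.5 in the white next to it (n = 24) and 46.95 ± 43.6 in the other white (n = 23). Col1a2 gave 572 ± 436, 122 ± 76.7 and 91.2 ± 53.7, and Myoc 146 ± 95.3, 44.9 ± 35.2 and 43.5 ± 36.6 in the same order. Gfap was different, with 1095 ± 496 at the edge, 1331 ± 478 in the white next to it, 1051 ± 406 in the other white and 282 ± 114 in the ventral horn. Without the 7 tables the order was the same, with Prx at 556, 38.5 and 38.9 normalised CPM, Col1a2 at 656, 138 and 106, Myoc at 161, 50.7 and 47.4 and Gfap at 1168, 1466 and 1140 (22, 22 and 21 mice).

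Between near and other inner white, 25 of 4440 genes (0.563%) were called, 11 higher and 14 lower near the edge. Gfap was higher near the edge (log2 fold change 0.29, SE 0.04, adjusted p = 1.72e-08, edgeR), and the others higher there included S100b (0.20), Fth1 (0.17), Apod (0.20), Mbp (0.14), Calca (0.57), Malat1 (0.15), Ahnak2 (0.45), Nbl1 (0.55) and Pea15a (0.16). Unc13c (-0.46), Snap25 (-0.23) and further synaptic genes such as Cplx1, Rab3a and Sncb were lower. These calls depend on the fit, since limma-voom with the mouse as a random effect called 0, edgeR without the block called 0, and 356 genes had an unadjusted p under 0.05 in the main fit. With the 7 tables left out, 32 were called, 21 of the 25 among them, while Calca (0.31), Ahnak2, Ralyl and Sncb lost their calls.

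**Figure D3:**
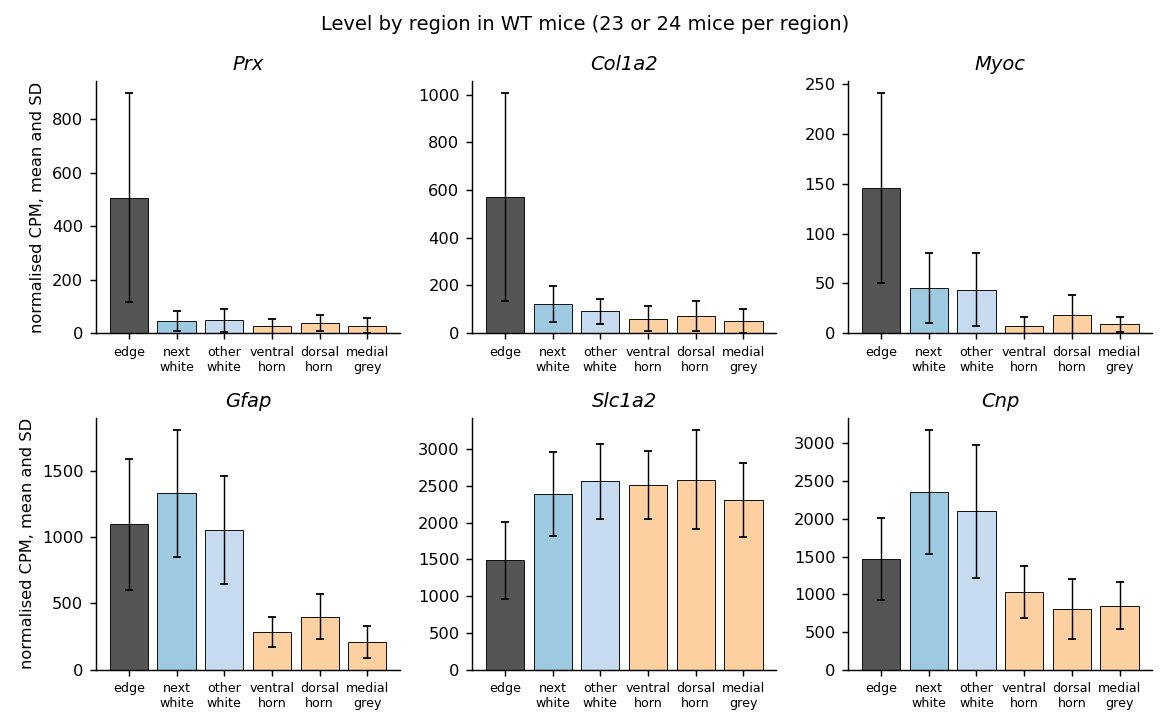
Mean normalised CPM with SD over 23 or 24 WT mice (y axis) for 6 genes in the edge, the inner white next to it, the other inner white and 3 grey regions (x axis). Prx, Col1a2 and Myoc are highest at the edge, Gfap is highest in the white next to the edge, Slc1a2 is lower at the edge than in the white and Cnp is highest in the 2 parts of the inner white.

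Single spots held few counts of each gene. Over the pooled spots of all mice, given as a description, Prx was counted in 1247 of 3781 edge spots and in 450 of 6854 inner white spots (6.57%), and in 19.0% and 2.25% after each spot was thinned to 500 counts, which left out 439 and 523 shallower spots. Leaving out the 7 tables, it was counted in 1196 of 3430 edge spots and 397 of 6346 inner white spots, and in 20.3% and 2.16% after thinning. The median depths were 1287 counts per edge spot and 1403 per inner white spot, and the inner white shares are the background beside which the edge shares stand.

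Spots at the edge without a count of the Schwann cell genes Prx, Pmp22 and Ncmap (905 spots, median 998 counts) were set beside those with one (2876 spots, median 1378 counts) as a description, since the split uses the counts themselves and its genes were chosen after their values were seen. The split follows mostly Pmp22, which was counted in 2799 of 3781 edge spots and also in 3648 of 6854 inner white spots. A count of it therefore does not mark a Schwann cell, and inner white spots were not split in this way. Without these 3 genes Myoc was at 136 CPM of the pooled counts, with them at 123, and in inner white at 41.1. Gfap was at 1147 without them, 815 with them and 1008 in inner white, and the edge without them lay above inner white in 20 of 24 mice. Col1a2 stood at 211, 571 and 99.5 in the same order and Igf2 at 165, 262 and 45.5. Calca was at 56.9 without the 3 genes, 413 with them and 88.3 in inner white. Slc1a2 remained below inner white in either kind of edge spot, at 1582 and 1086 against 1872, as did Cnp, at 1317 and 1291 against 1951. Spots without a count of the 3 Schwann cell genes held the surface genes Myoc, Igf2 and Col1a2 above inner white, each in 21 of 24 mice. Crispld2 was rarer, counted in 358 of 3781 edge spots. It stood at 23 CPM without the 3 genes, 72 with them and 16 in inner white. Without them it lay above inner white in 13 of 24 mice, and in 12 of 22 leaving out the 7 tables. At 23 CPM in 905 spots of a median of 998 counts, a mouse holds few counts of it or none. Its number of mice therefore cannot be set beside those of Myoc, Igf2 and Col1a2. Leaving out the 7 tables, Myoc, Igf2 and Col1a2 stood at 168, 189 and 249 in such spots, against 42.6, 44.9 and 98.2 in inner white. Gfap then stood at 1314 against 1068.

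The edge was then divided by position, each part set against the white of its side. All positions entered 1 fit of 142 sums of 24 mice, with no term for the edge effect of a single mouse. Of 2622 genes tested in all 3, 401 were called ventrally (15.3%, with 163 or 6.22% higher and 238 or 9.08% lower), 325 laterally (12.4%, with 146 or 5.57% and 179 or 6.83%) and 557 dorsally (21.2%, with 257 or 9.8% and 300 or 11.4%). This split depends on scaling: with DESeq2 size factors in edgeR it was 298 higher and 148 lower ventrally, 219 and 116 laterally and 418 and 249 dorsally. With the 7 tables left out, 454, 395 and 669 genes were called. Leaving out WT p70 mouse 3 lowered the lateral count to 191. At all 3 positions 85 genes were higher and 83 lower. The 85 are 85 of 163 genes higher ventrally, of 146 laterally and of 257 dorsally. Camk2n1, a CaMKII inhibitor, was 1 of the 2 genes called in opposite directions at 2 positions.

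Surface genes rose at each position. Col1a2 rose by 2.35 (SE 0.18) ventrally, 2.00 (SE 0.21) laterally and 2.41 (SE 0.23) dorsally, and Prx by 3.34 (SE 0.27), 2.79 (SE 0.30) and 3.20 (SE 0.35). Of 11 fibroblast markers tested 10, 11 and 11 rose, and of 4 Schwann cell markers 4 rose at each position. Of the markers that pass on inner white counts alone, 4, 5 and 5 of 5 fibroblast and 2 of 2 Schwann cell markers rose, beside 137, 122 and 233 of 2579 genes that pass in that way. Of 28 myelin genes tested 20 fell ventrally, 16 laterally and 28 dorsally. Of 17 astrocyte transport genes 12 fell ventrally, 10 laterally and 4 dorsally, where 1 rose. Myoc rose by 2.09 (SE 0.21) ventrally, 1.65 (SE 0.27) laterally and 1.17 (SE 0.28) dorsally. Calca rose by 1.45 laterally and 2.04 dorsally and was at 0.77 ventrally without a call. With the 7 tables left out, Prx rose by 3.59, 3.16 and 3.26, Col1a2 by 2.44, 2.21 and 2.40 and Myoc by 2.14, 1.75 and 1.24, and 22, 18 and 28 of 28 myelin genes and 12, 12 and 5 of 17 astrocyte transport genes fell, in the order ventral, lateral and dorsal.

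Tests of the difference between positions called few genes, and how many depended on the mice in the fit. Between dorsal and ventral edge effects 6 genes differed (0.229%), between dorsal and lateral 9 (0.343%) and between ventral and lateral 0 (0%, 60 at an unadjusted p under 0.05, and 0 by DESeq2). With the 7 tables left out, 44, 72 and 0 differed. Leaving out 1 mouse at a time gave 0 to 24 for dorsal against ventral, with 0 without WT p100 mouse 4, WT p30 mice 3, 4 or 6 or WT p70 mouse 4, and 24 without WT p30 mouse 2. For dorsal against lateral it gave 4 to 41, with 4 without WT p30 mouse 4 or 6 and 41 without WT p70 mouse 3.

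Unc13c, a synaptic vesicle priming protein, fell at the ventral edge (-1.10, SE 0.15) and lateral edge (-1.33, SE 0.18) and was at -0.11 (SE 0.17) dorsally, a difference of 0.996 dorsal against ventral and 1.22 dorsal against lateral. The dorsal white was itself lower in Unc13c (166 ± 87.3 normalised CPM, SD, n = 23) than the ventral white (275 ± 144, n = 24), while the dorsal edge held 147 ± 88.6 and the ventral edge 123 ± 79.8. Slc1a3, a glutamate transporter of astrocytes, was alike at the 3 edges, at 217 ± 114, 216 ± 128 and 211 ± 104, and its white levels were 289 ± 115 ventrally, 271 ± 104 laterally and 128 ± 75.8 dorsally. The 3 edge levels of Slc1a3 lay close together and the dorsal white level lay apart, and the edge effect differed by 0.87 between dorsal and lateral. Slc6a11 differed in the same direction (0.998), and so did Camk2n1 (0.92).

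Single genes differed the other way, 4 in each of the dorsal contrasts. Ugt8a, an enzyme of myelin galactolipid synthesis, fell dorsally (-0.68, SE 0.10) and was at -0.11 (SE 0.09) ventrally and -0.01 (SE 0.10) laterally. Its white levels were 1779 ± 1184 normalised CPM ventrally, 1612 ± 1088 laterally and 1605 ± 1300 dorsally, and its edge levels 1528 ± 1269, 1450 ± 1248 and 962 ± 682. Klk6, a protease of oligodendrocytes, fell by 1.18 on the log2 scale dorsally (SE 0.17) and was at -0.30 (SE 0.14) ventrally. Lpar1 (-0.72), Trf (-0.62), which encodes transferrin, and Sccpdh (-0.72) differed between dorsal and lateral edge, and Hn1l (-1.21) and Rab37 (-1.08) between dorsal and ventral. Nnat differed by 0.94 and was higher dorsally (0.79, SE 0.17). The 6 and 9 genes called between positions were called without the 7 tables as well. Over all alternatives run, for dorsal against ventral Klk6 lost its call in 23 of 31, Rab37 in 17 of 30, Nnat in 14 of 30, Ugt8a in 13 of 31 and Unc13c and Hn1l in 7 each. For dorsal against lateral Trf lost it in 20 of 31, Slc1a3 in 12, Lpar1 in 10, Slc6a11 in 5, Sccpdh in 4, Ugt8a in 2 and Unc13c and Camk2n1 in 1 each.

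**Figure D4:**
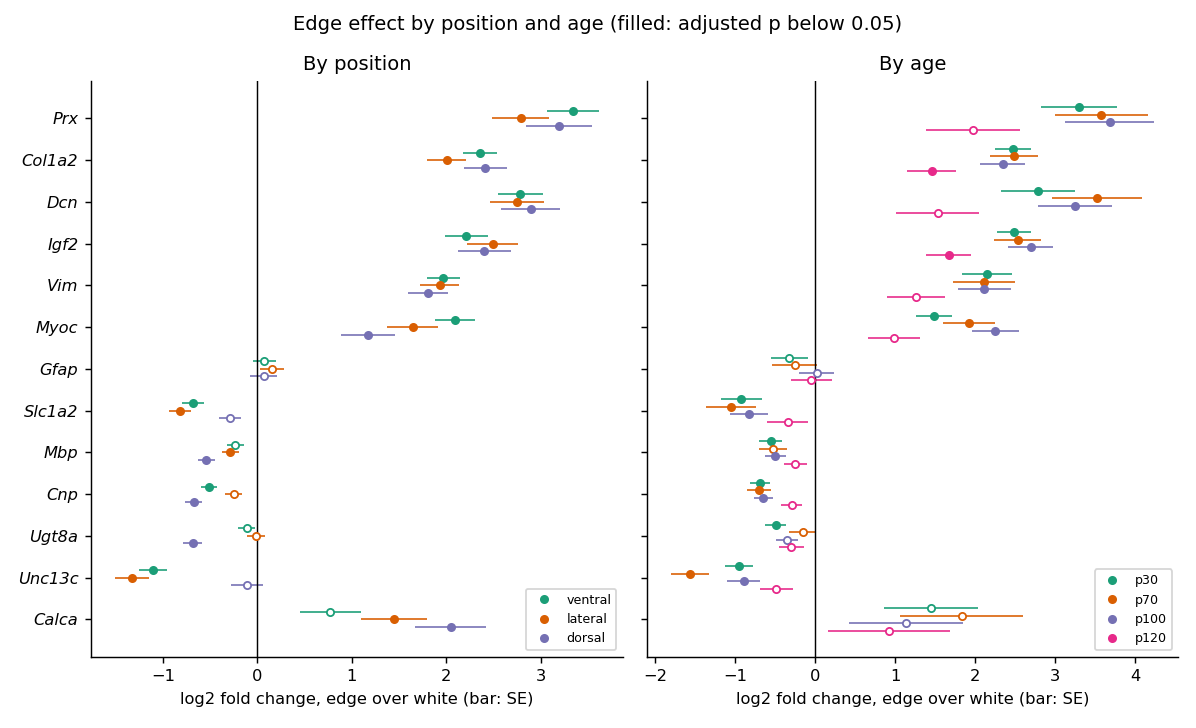
Log2 fold change of edge over white with SE (x axis) for 13 genes at 3 positions (left) and 4 ages (right), filled where called. Unc13c, Ugt8a and Calca spread by position, though for Calca no difference between positions was called. The p120 values lie nearest to 0 for Prx, Col1a2, Dcn and Igf2.

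At each age Col1a2 and Prx had positive edge effects. Called were 559 genes at p30 (10.6%, 6 mice), 346 at p70 (6.57%, 4 mice), 305 at p100 (5.79%, 8 mice) and 10 at p120 (0.19%, 6 mice). Of the 6 mice at p120, 2 had contradicted labels in every table, and with the 7 tables left out, 726, 351, 316 and 43 of 4815 genes were called. Depth moved with age as well: the median edge counts per mouse were 354900, 246400, 64380 and 137400 in the same order, and its part in these counts was not tested. Mice on L6 arrays were 2 of 6, 2 of 4, 3 of 8 and 4 of 6 in that order. The part of the array version was not tested either. Col1a2 rose by 2.47 (SE 0.23), 2.48 (SE 0.30), 2.34 (SE 0.28) and 1.46 (SE 0.31) in the order of age. Prx rose by 3.30, 3.58 and 3.68 at the first 3 ages and was at 1.97 (SE 0.59) at p120 without a call, and it rose by 2.497 (SE 0.48) at p120 without the 7 tables.

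The difference between ages was not called for any gene. A test of any difference over the 4 ages called 0 of 5266 genes (0%, 121 at an unadjusted p under 0.05), and p120 against p30 called 0 (0%, 156 unadjusted). DESeq2 called 0 in either test. A lower value at p120 than at p30 is therefore not shown to be a change with age. With few mice per age, a count of 0 does not show the ages to be alike either. For Gfap the 4 values were -0.32, -0.26, 0.02 and -0.05, none of them called.

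The same edge effect was set against that of G93A mice in a single fit of 3609 genes. At p100 (8 WT, 5 G93A mice) 4 genes differed (0.111%, 162 at an unadjusted p under 0.05), and at p120 (6 WT, 9 G93A mice) 0 (0%, 92 unadjusted). S100a6, a calcium-binding protein, rose at the edge by 1.65 (SE 0.17) in WT and was at 0.45 (SE 0.15) in G93A, a difference of -1.20. C4b, complement component 4, was at 0.45 (SE 0.20) in WT and -0.71 (SE 0.15) in G93A, a difference of -1.16. Rhoj, a small GTPase, rose by 2.05 (SE 0.34) in WT and was at -0.21 (SE 0.27) in G93A, and Ybx3, a nucleic acid-binding protein, was at -0.11 (SE 0.21) and 1.19 (SE 0.22).

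These 4 calls depended on the mice in the fit. The contradicted tables were 4 of 22 WT and 11 of 37 G93A tables at p120 and none at p100, and without them 2 of the genes, S100a6 and C4b, were called at p100, while Ybx3 was at an adjusted p of 0.0761 (edgeR) and Rhoj was not tested. Leaving out 1 mouse at a time gave 0 to 4, with 0 without WT p100 mouse 6 and 1 without WT p100 mouse 7 or G93A p100 mouse 3. Over the alternatives that tested them, Ybx3 lost its call in 20 of 34, C4b in 8 of 35, S100a6 in 2 of 35 and Rhoj in 0 of 20. Values of the surface genes at p100 are given side by side: Col1a2 rose by 2.32 (SE 0.35) in WT and 2.71 (SE 0.37) in G93A, Prx by 3.60 (SE 0.43) and 2.99 (SE 0.49), and Mbp fell by 0.46 (SE 0.10) and 0.47 (SE 0.13) on the log2 scale. Gfap was at 0.04 (SE 0.14) in WT and -0.45 (SE 0.15) in G93A, and the difference was not called for any of these.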

How the data were processed

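The authors' deposited files hold, per array, whole-number counts by gene symbol and spot, taken here as raw counts, and a region for each spot. Per the submitters' processing notes the build was GRCm38, and per the labels the tables of the mixed p70 arrays came from ST Pipeline 0.8.5. The sources used here do not say whether molecular identifiers were counted. Ambiguous rows (0.587% of counts of WT mice) were left out of library sizes and tests. The 345 tables fall into 3 sets by the symbols they list, and the 17261 symbols in all 3 sets were used, leaving 5662 out. The stricter reading, symbols listed in every single table (6641), was an alternative.

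Counts were summed per mouse and class, with at least 10 spots and 5000 counts (for positions 5 and 2000), and tested with edgeR 4.0.16 in R 4.3.3 (TMM, filterByExpr, robust quasi-likelihood, mouse as block), calling genes at an adjusted p below 0.05. DESeq2 1.42.0 and limma 3.58.1 served as alternatives. The block is the mouse itself: edge and inner white come from the same animal. The SE is the log2 fold change divided by the square root of F. Scripts were tested on simulated data. Coordinates came from GENCODE vM21 by symbol (419 of 420 matched) and a dot in a symbol stands for a hyphen. Total counts per mouse, given in the report, set the precision. With 1 sum per mouse and class, p-values measure the spread of the paired difference between mice. The position tests came from 1 fit of 142 sums of 24 mice. That fit has no term for the edge effect of a single mouse, so the sums of a mouse count as separate. Its p-values therefore do not measure the spread of the edge effect between mice alone. Shares over pooled spots carry no measure of the spread between mice.

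The 23 lists, their members and the comparisons were chosen with earlier results of these data known. Genes named were the 12 with the smallest p and the 3 with the largest fold (mean of 20 CPM or more) in each direction, up to 4 per list with defining genes, and up to 5 in each direction in the other comparisons. Other list members are named to complete a count, after their values were seen, and some genes that the rule names are not reported here. Alternatives were other scalings, filters, tools, array versions, mice left out, a class thinned to equal totals, and fits without tables whose labels the counts contradict.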

Additional observations from a re-analysis of the deposited data

Results flagged for a closer look

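Single mice stood apart in 6 of 72 groups checked, an age group of 4 to 8 mice each, where chance gives about 1 in 20. The log2 ratio of edge to inner white of Col1a1 was -0.504 in WT p120 mouse 4 (nearest mouse 1.41) and that of Dcn was 0.708 in WT p30 mouse 2 (nearest 2.79). Both mice had tables whose region labels the counts contradict. Dcn was at 2.19 in WT p70 mouse 4 (nearest 4.00), Snap25 at -0.642 in WT p120 mouse 2 (nearest 0.0573), Flt1 at -2.06 in WT p120 mouse 1 (nearest -0.458) and P2ry12 at 1.44 in WT p100 mouse 8 (nearest -0.213). WT p100 mouse 8 had 1 array.

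Edge effects differed by position, by a test of the difference in edgeR, for the genes that follow in log2 units. Dorsal less ventral gave Unc13c 0.996, Nnat 0.938, Ugt8a -0.569, Klk6 -0.883, Rab37 -1.08 and Hn1l -1.21. Dorsal less lateral gave Unc13c 1.22, Slc6a11 0.998, Camk2n1 0.918, Slc1a3 0.875, Trf -0.62, Ugt8a -0.67, Lpar1 -0.716 and Sccpdh -0.721. G93A less WT at p100 gave Ybx3 1.3, C4b -1.16, S100a6 -1.2 and Rhoj -2.26.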

How the results depend on the processing

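Of 82 genes chosen by the rule in the main comparison and called there, 82 kept their direction under every alternative in which they passed the filter and were tested, 40 were called under each of those, and 70 under each of those but the fit of L6 arrays alone. Of the 39 alternatives, the gene tested least often was tested in 11; 44 of the 82 genes were tested in all of them, and 8 of these were called in each. With no filter on low counts the calls were 2521 for edge against inner white, 1099, 988 and 1057 for the ventral, lateral and dorsal edge, 34 for dorsal less ventral, 30 for dorsal less lateral, 1 over ages and 11 for near against other white. On L6 arrays alone they were 26, 39, 5 and 11, 0, 0, 1 and 5 in that order, and 0 for G93A less WT at p100. On L7 and L8 arrays alone dorsal less ventral gave 25, p120 less p30 gave 1, G93A less WT gave 13 at p100 and 1 at p120, and near against other white gave 15. Without the mouse block the paired comparison gave 892 calls, the ventral edge 226, the lateral edge 165, the dorsal edge 396 and near against other white 0. Without the tables of contradicted labels, an alternative chosen after seeing the data, dorsal less ventral gave 44, dorsal less lateral 72 and G93A less WT at p100 2. Dorsal less lateral gave 23 with DESeq2 size factors and 48 with DESeq2. Near against other white gave 0 with limma-voom and 8 with neighbours within 2.5 array units. Leaving out 1 mouse at a time gave 1146 to 1446 for edge against inner white, 191 to 395 for the lateral edge (191 without WT p70 mouse 3), 0 to 24 for dorsal less ventral, 4 to 41 for dorsal less lateral, 0 to 4 for G93A less WT at p100 and 19 to 50 for near against other white (50 without WT p120 mouse 5). For dorsal less ventral, 14 of the 24 mice left out moved the count by over 1.5 times: p30 mice 2 (to 24), 3, 4 and 6 (to 0) and 5 (to 2), p70 mice 1 (to 1), 2 (to 16), 3 (to 2) and 4 (to 0), and p100 mice 1 and 6 (to 3), 2 and 5 (to 2) and 4 (to 0). For dorsal less lateral it was 8 of 24: p30 mice 2 (to 27), 3 (to 15), 4 and 6 (to 4), p70 mouse 3 (to 41), and p120 mice 2 (to 19), 3 (to 18) and 4 (to 17). For G93A less WT at p100 it was 13 of 28: WT p100 mice 6 (to 0), 7 (to 1), 2 and 4 (to 2), G93A p100 mice 3 (to 1), 2, 4 and 5 (to 2), and, at the other age, WT p120 mice 5 and 6 and G93A p120 mice 6, 7 and 9 (to 2). Genes chosen by the rule and not called in the main comparison changed sign as follows: Slc23a2 (-0.0247 with no filter, -0.00300 on L7 and L8 arrays, -0.0011 thinned, -0.0081 without mixed arrays, -0.0278 with 1 name set), Jun (0.0011 on L7 and L8 arrays, 0.0024 against white not next to the edge, 0.13 with 1 name set), Slc38a2 (0.0137), Mt2 (0.0567) and Aqp4 (0.0193) on L6 arrays, Gfap (0.0538 on L6 arrays, 0.0812 against white not next to the edge) and Snap25 (-0.0401 with no filter, -0.0722 against white not next to the edge). The cause of these changes was not tested. A fit without mitochondrial transcripts was not run, since the tables list none. Of the other list members, C1qb, C1qc and Nefh, not called, changed sign without the tables of contradicted labels. The shallowest mouse held 11210 edge counts, which limits what can be detected for low genes.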
